A study of Mus musculus with 41 samples.

Results

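The comparison concerns the diet that mice ate in adulthood, while their mammary tumors grew. It was drawn from the sample labels: of the 41 tumors in the series, the 29 with the morphology label p53 variable, which correspond to the study's epithelial tumors, were taken, and 14 tumors grown on a high fat diet (HFD) as adults were set against 15 grown on a low fat diet (LFD). The adult HFD group holds 8 tumors of mice kept on HFD for life (HFD) and 6 of mice fed LFD through puberty and HFD thereafter (LFD-HFD). The adult LFD group holds 8 tumors of mice kept on LFD for life (LFD) and 7 of mice fed HFD through puberty and LFD thereafter (HFD-LFD). All tumors arose in wild-type female BALB/c mice, in mammary fat pads that had been cleared of their own epithelium and given fragments of mammary duct from Trp53-null donors, so the epithelium lacked p53 in every group while the host stroma did not. The labels also divide the tumors into early and late occurring ones, 14 early and 15 late. RNA of each tumor was hybridised to 1 array together with a pooled RNA of 11 mouse cell lines, and each value below is the log2 ratio of the tumor signal to the reference signal. A difference is always the mean of the adult HFD tumors minus the mean of the adult LFD tumors on that log2 scale.

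The mammary gland is unusual in that its epithelium grows embedded in fat. Adipocytes of the fat pad store dietary lipid and secrete hormones such as adiponectin and leptin, and a tumor recruits blood vessels, fibroblasts and immune cells from the same tissue. BALB/c mice are known as a strain that gains little weight on a high fat diet. A bulk array of a tumor reads all of these cells at once, so fewer cells of a type and less RNA per cell cannot be told apart.

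The tumors carried the epithelial markers that their label implies. The keratin genes Krt8 and Krt18, the adhesion genes Epcam and Cdh1 and the basal keratin genes Krt5 and Krt14 exceeded the scanner's background limit in the tumor channel on all 29 arrays, and the log2 ratio of Krt18 had a median of 2.78 (range 0.57 to 3.80). In the tumor channel, the percentage of spots over that limit was 72.0% ± 6.87 (SD, n = 14) on adult HFD and 75.1% ± 11.7 (SD, n = 15) on adult LFD, a difference of means that gave p = 0.404 in a two-sided permutation test (adjusted p = 0.608 over 5 measures of array quality). Each of the 8 slides carried tumors of 1 adult diet, so no difference could be measured within a slide, and slide and adult diet cannot be told apart. Among adult LFD tumors, early ones were on slides 3 and 6 and late ones on slides 4 and 7. Onset and slide therefore cannot be told apart in that group. A second scan session held 2 adult HFD tumors alone, 42L4B and 60L, and 22.02% of the spots of 60L were marked as outliers and left out. The labels place the tumor RNA in the Cy5 channel whereas the study's methods name that dye for the reference. The labels were followed: the median of 5 probes for Y-linked genes was brighter in Cy3 on 26 of the 29 arrays, and the tumors came from female mice.

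Trp53 itself, the gene deleted in the donors, was read by a probe at chr11:69404204-69404263 (mm9). Whether that probe lies within the deleted part is not given in the sources used here, so its level does not check the labels. Its log2 ratio ran from -0.88 through a median of 0.51 to 3.74 in the adult HFD tumors and from -2.25 through 0.58 to 1.23 in the adult LFD tumors. The 2 highest values were those of 60L and 42L4B, at 3.74 and 2.99, and the groups otherwise overlapped. The difference was 0.37 (SE 0.39, adjusted p = 0.957), and without 42L4B and 60L it was -0.07. In the tumor channel alone the Trp53 difference over all tumors was 0.04, the reference channel giving -0.33.

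No gene differed between adult HFD and adult LFD tumors at an adjusted p under 0.10. Of 21378 genes tested with limma, 0 were called higher and 0 lower, a percentage called of 0, and the lowest adjusted p was 0.954. At an unadjusted p under 0.05 there were 485 genes with higher and 378 with lower ratios on adult HFD, 2.27% and 1.77% of the genes tested and 4.04% in all. The median SE of a gene's difference was 0.206. The count of called genes was also 0 in both directions with pubertal diet and onset as covariates, with slide as a random block, after another background correction, in the matrix that the authors normalized, and with each tumor or each slide left out. The values that follow therefore describe the genes and groups of genes that lay farthest from equality, none of which passed the test.

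Of the 12 genes of smallest p with higher ratios on adult HFD, the smallest p was that of Ccbe1. Ccbe1 encodes a secreted protein needed for the growth of lymphatic vessels. Its log2 ratio ran from -0.32 through a median of 1.80 to 4.07 in the adult HFD tumors and from -4.87 through -0.06 to 2.13 in the adult LFD tumors. The groups overlapped, but 1 of 15 adult LFD tumors lay above the median of the adult HFD tumors. The difference was 2.22 (SE 0.57, unadjusted p = 0.000455), and 3 Ccbe1 probes gave differences from 0.76 to 2.22.

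Fbln2 encodes fibulin-2, a protein of the extracellular matrix. Its ratio had a median of 0.77 on adult HFD (range -0.68 to 2.53, n = 13) and of -0.36 on adult LFD (range -1.98 to 1.0, n = 15), and the difference was 1.06 (SE 0.28). Again 1 of 15 adult LFD tumors exceeded the adult HFD median. Exoc3l, related to the exocyst complex of secretion, was above the adult LFD median in 14 of 14 adult HFD tumors, with a difference of 0.75 (SE 0.20). The highest Exoc3l value, 2.37, belonged to a lifelong HFD tumor, and the next regimen's highest was 1.05 in an LFD-HFD tumor.

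Cnn2, an actin-binding calponin, differed by 0.65 (SE 0.18) and was above the adult LFD median in 13 of 13 adult HFD tumors measured. Myct1 differed by 0.40 (SE 0.12) and was above that median in 14 of 14. Rhoc, a small GTPase of cell motility, differed by 0.66 (SE 0.19), and Ext1, which extends heparan sulfate chains, by 0.51 (SE 0.15). Sh2d3c, an SH2 domain adaptor, differed by 0.47 (SE 0.13), and Slc6a9, a glycine transporter, by 0.66 (SE 0.20). The ratios of Alb, Myl4 and Flnc, which encode albumin, a myosin light chain and a muscle filamin, differed by 0.42, 0.34 and 0.53. These 3 genes were far below the reference in every group: the mean ratio on adult LFD was -4.38 for Alb, -5.63 for Myl4 and -3.90 for Flnc.

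Among the 12 genes with lower ratios, Fgf9, a secreted fibroblast growth factor, had the smallest p. Its log2 ratio ran from -4.26 through a median of -3.25 to -1.20 in the adult HFD tumors and from -3.33 through -1.97 to 0.68 in the adult LFD tumors. The groups overlapped, and 14 of 15 adult LFD tumors lay above the adult HFD median. The difference was -1.37 (SE 0.36, unadjusted p = 0.000606), and -0.35 with normexp background correction and loess normalization of each array. The probe was well above background on only 8 of 14 adult HFD arrays against 13 of 15 adult LFD arrays.

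Ttll2, a member of the tubulin tyrosine ligase-like family, had a median ratio of -0.41 on adult HFD (range -1.64 to 0.47) and of 0.39 on adult LFD (range -0.96 to 2.42), and its difference was -1.0 (SE 0.28). H2bc23, a histone H2B gene, differed by -0.99 (SE 0.31), and Adora1, the adenosine A1 receptor, by -1.03 (SE 0.33). Gas2, a cytoskeletal gene of growth arrest, differed by -0.79 (SE 0.23), with 1 of 14 adult HFD tumors above the adult LFD median. Gm8909 differed by -0.71 (SE 0.19), Fry by -0.70 (SE 0.21), Ralgapa2 by -0.65 (SE 0.21), Pmel by -0.63 (SE 0.20) and Zswim9 by -0.57 (SE 0.17). The 3 probes of Zswim9 disagreed, with differences from -0.57 to 0.07. For Kcnk9, a potassium channel, and Ppp5c, a protein phosphatase, the differences of -0.53 and -0.59 were not matched by the tumor channel. The tumor signal alone differed by -0.02 for Kcnk9 and 0.09 for Ppp5c on the log2 scale, and the reference signal, which is the same RNA on every array, by 0.52 and 0.68.

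The sizes of several of these differences depended on the processing, although all kept their sign. With normexp and loess 10 of the 24 genes moved by more than 1.5 times, all toward zero. The differences became 1.37 for Ccbe1 and 0.33 for Exoc3l among the higher genes, and -0.35 for Fgf9, -0.39 for Gm8909, -0.40 for Ttll2, -0.15 for Gas2, -0.12 for Kcnk9, -0.37 for Zswim9, -0.29 for H2bc23 and -0.05 for Pmel among the lower ones. In the matrix that the authors normalized, 7 of the 22 genes present moved as far, to 0.37 for Exoc3l, 0.26 for Sh2d3c, 0.41 for Slc6a9, -0.83 for Fgf9, -0.26 for Kcnk9, -0.35 for H2bc23 and -0.35 for Pmel. Averaging the probes of a gene gave 1.46 for Ccbe1, -0.21 for Zswim9 and -0.42 for Ralgapa2, and keeping outlier spots gave 0.24 for Sh2d3c. Fbln2, Cnn2, Myct1, Rhoc, Ext1, Alb, Myl4, Flnc, Fry, Adora1 and Ppp5c moved by less than 1.5 times in every such run.

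**Figure D1:**
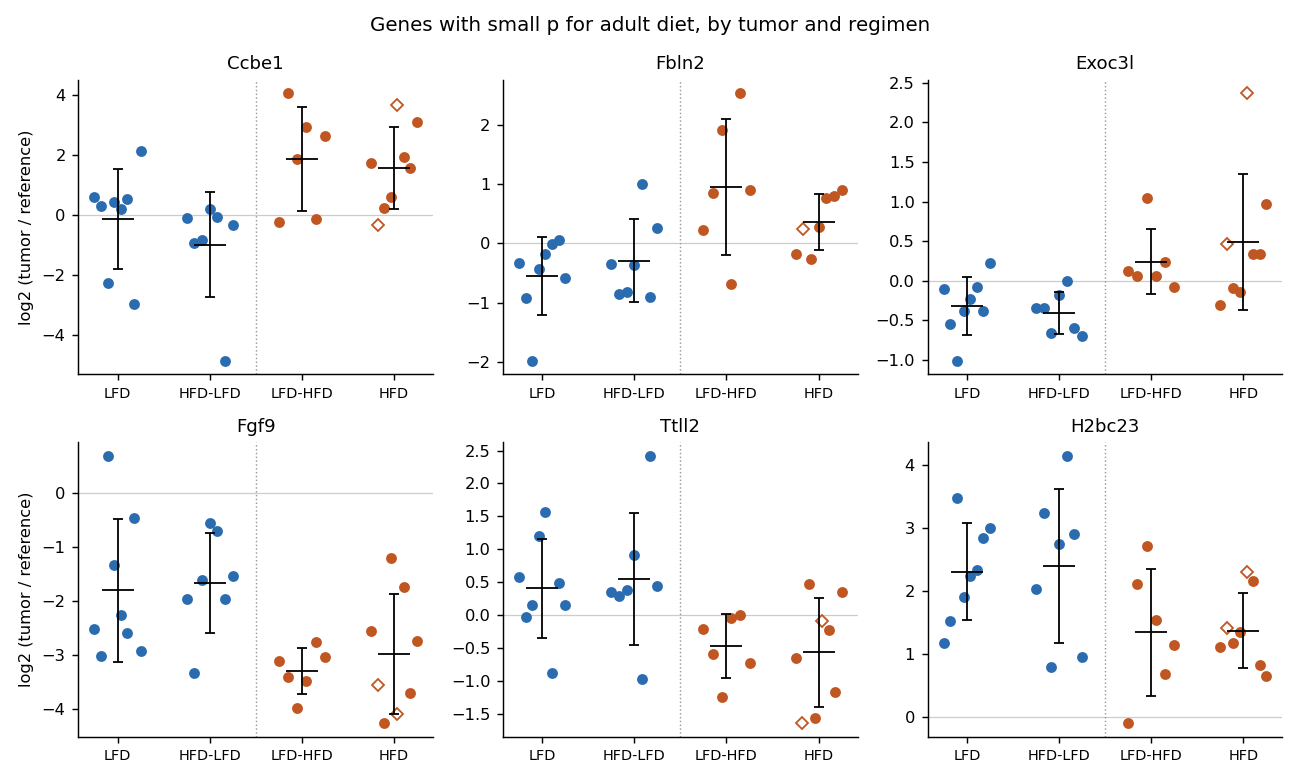
Log2 ratio of tumor to reference (y axis) of 6 genes in each tumor, with the 4 regimens on the x axis, adult LFD regimens (blue) left of the dotted line and adult HFD regimens (orange) right of it; bars are the mean and SD and open diamonds mark 42L4B and 60L. Ccbe1, Fbln2 and Exoc3l have higher means in both adult HFD regimens and Fgf9, Ttll2 and H2bc23 lower ones, with single tumors of the diet groups overlapping in every panel.

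The genes were also described by 28 lists of pathways and cell types, which were chosen with earlier results of these data known. Over all genes tested the median difference was 0.01 and 51.4% had a higher ratio on adult HFD. The list medians ran from -0.46 for adipocyte markers to 0.39 for fibroblast and mesenchymal markers, and 0 members of any list were called.

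**Figure D2:**
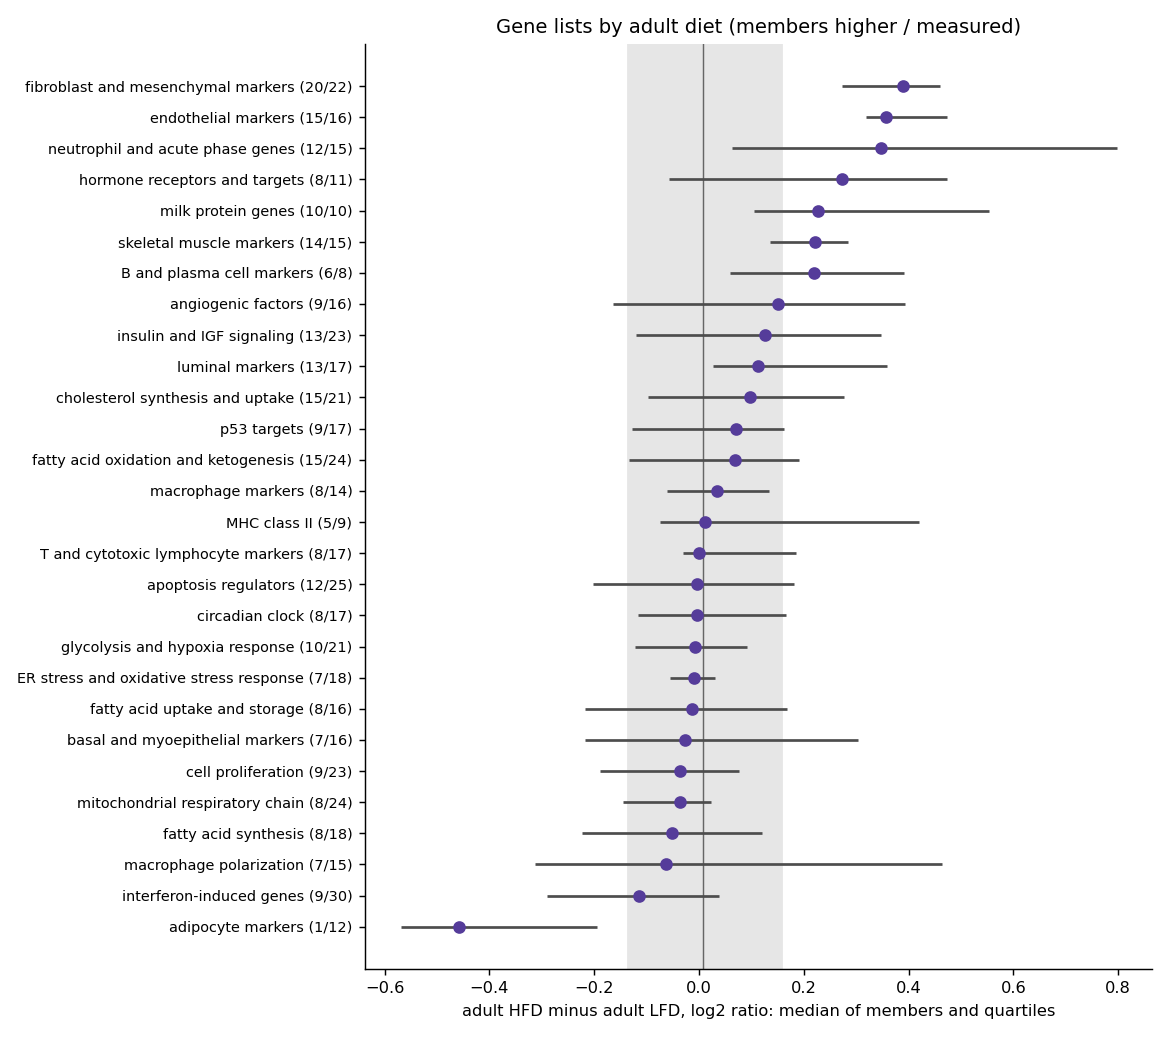
Difference of adult HFD minus adult LFD tumors in log2 ratio (x axis) for 28 gene lists (y axis); points are the median of a list's members, lines their quartiles, numbers in brackets how many members were higher of those measured, and the grey line and band the median and quartiles of all genes tested. Endothelial and fibroblast and mesenchymal lists lie at 0.36 and 0.39 and the adipocyte list at -0.46.

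Endothelial genes, which mark the lining of blood and lymphatic vessels, had higher ratios on adult HFD in 15 of 16 members, with a median difference of 0.36. Of these, 7 had an unadjusted p under 0.05, a threshold that 2.27% of all genes passed in that direction, and 0 were called. Cldn5, the tight junction claudin of endothelium, had the smallest p: its ratio had a median of -2.47 on adult HFD (range -2.92 to -1.71, n = 12) and of -2.99 on adult LFD (range -4.48 to -1.93, n = 15). All 12 adult HFD tumors measured lay above the adult LFD median, as did 3 adult LFD tumors above the adult HFD median, and the difference was 0.71 (SE 0.26, adjusted p = 0.954). Emcn, an endothelial sialomucin, differed by 0.50 (SE 0.21), Egfl7, a secreted endothelial factor, by 0.38 (SE 0.15) and Tie1, a vascular receptor tyrosine kinase, by 0.33 (SE 0.13).

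Pecam1, the platelet and endothelial adhesion gene whose protein the study stained to count vessels, differed by 0.46 (SE 0.19). Its ratio ran from -1.11 through a median of -0.68 to 1.01 on adult HFD and from -1.75 through -1.02 to -0.45 on adult LFD. In the tumor channel alone the Pecam1 difference was 0.24, the reference channel giving -0.22. The 2 highest Pecam1 ratios were those of 60L and 42L4B, at 1.01 and 0.56, and without these tumors the difference was 0.24. The lymphatic receptor gene Flt4 and the transcription factor gene Sox18 differed by 0.39 (SE 0.17) and 0.45 (SE 0.18), Flt4 by 0.15 with normexp and loess. Kdr, the main receptor for vascular endothelial growth factor, differed by 0.02 (SE 0.15), and Vwf was the member with a lower ratio, at -0.27 (SE 0.34), though it was 0.31 when its probes were averaged. The median over the list was 0.18 within pubertal LFD and 0.52 within pubertal HFD, and 0.17 in early and 0.43 in late tumors taken alone. With each tumor or slide left out it lay between 0.28 and 0.46. Of the genes that encode angiogenic factors 9 of 16 had higher ratios, with a median of 0.15. In the tumor channel alone the median was 0.31 for angiogenic factors and 0.36 for the endothelial list, and the difference between these lists was not tested.

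The promoters of the 3 endothelial genes of smallest p are shown because the members of this list lay on one side of zero together. They are RefSeq sequences of GRCm38.p6 from 250 bases before to 50 after a transcription start, at chr16:18776597-18776896 on the plus strand for Cldn5, chr2:26580833-26581132 on the plus strand for Egfl7 (the first of its starts in the table) and chr4:118489800-118490099 on the minus strand for Tie1. Capitals mark the letters AGGAAG on either strand, a form of the core bound by ETS transcription factors, which are known regulators of endothelial genes.
Cldn5: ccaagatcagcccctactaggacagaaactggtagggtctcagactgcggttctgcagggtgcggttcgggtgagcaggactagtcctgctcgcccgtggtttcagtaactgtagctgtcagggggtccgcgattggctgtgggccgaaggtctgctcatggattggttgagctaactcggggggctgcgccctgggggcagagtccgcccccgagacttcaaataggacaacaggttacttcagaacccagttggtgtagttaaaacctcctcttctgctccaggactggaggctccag
Egfl7: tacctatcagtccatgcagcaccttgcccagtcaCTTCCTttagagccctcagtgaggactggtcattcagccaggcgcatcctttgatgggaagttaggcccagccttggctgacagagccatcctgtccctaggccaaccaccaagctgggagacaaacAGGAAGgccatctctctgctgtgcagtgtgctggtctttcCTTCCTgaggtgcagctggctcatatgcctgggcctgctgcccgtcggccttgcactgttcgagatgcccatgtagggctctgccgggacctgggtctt
Tie1: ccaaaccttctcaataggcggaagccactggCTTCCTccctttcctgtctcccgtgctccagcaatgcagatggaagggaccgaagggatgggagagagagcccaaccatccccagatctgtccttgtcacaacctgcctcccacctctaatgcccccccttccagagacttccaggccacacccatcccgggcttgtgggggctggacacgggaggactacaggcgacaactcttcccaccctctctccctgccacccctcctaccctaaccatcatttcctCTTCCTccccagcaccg
The window held 0 matches for Cldn5, 3 for Egfl7 and 2 for Tie1. The letters were found in 6 of the 10 endothelial genes with an entry in the table and in 35.1% of 27025 promoters of the same length. A match is a description of the letters and not of binding.

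Fibroblast and mesenchymal genes had higher ratios in 20 of 22 members, with a median difference of 0.39 and 4 members at an unadjusted p under 0.05 (2.27% of all genes in that direction). Vim, the intermediate filament of mesenchymal cells, ran from -2.23 through a median of -1.43 to -0.09 on adult HFD and from -2.86 through -1.95 to -0.27 on adult LFD. The difference was 0.57 (SE 0.23), and 12 of 13 adult HFD tumors measured lay above the adult LFD median. Pdgfrb, a receptor of pericytes and fibroblasts, differed by 0.52 (SE 0.22), Thy1 by 0.40 (SE 0.19) and Fap, a protease of activated fibroblasts, by 0.27 (SE 0.12). The Fap difference was 0.04 with outlier spots kept. Fibronectin (Fn1) differed by 0.75 (SE 0.43), or 0.32 in the matrix of the authors, and the collagen gene Col1a1 by 0.26 (SE 0.38), with -0.47 within pubertal LFD and 1.01 within pubertal HFD. The list depended on 1 slide: without slide 1, which carried 2 HFD and 2 LFD-HFD tumors, its median was 0.16 with 16 of 22 members higher, and without slide 2, of LFD-HFD tumors, it was 0.62. Without the single HFD tumor 62L it was 0.25.

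Adipocyte genes lay on the other side, 11 of 12 measured members having lower ratios on adult HFD with a median of -0.46 and 1 at an unadjusted p under 0.05 (1.77% of all genes in that direction). Adrb3, the beta-3 adrenergic receptor of fat cells, differed by -1.22 (SE 0.55) and Cfd, which encodes adipsin, by -1.03 (SE 0.58). Without 42L4B and 60L the Adrb3 difference was -0.74, and with normexp and loess -0.62. Adipoq, the adiponectin gene, had a median of -3.57 on adult HFD (range -5.22 to -2.09) and of -3.36 on adult LFD (range -4.77 to -0.39), and differed by -0.46 (SE 0.39), or -0.29 with 1 tumor per shared number. The averages over the list spread widely among the HFD-LFD tumors, from -4.28 to -0.42, and the highest values of all belonged to that regimen. Within pubertal LFD the median was 0.13 with 8 of 12 members higher, and within pubertal HFD it was -0.90 with 0 of 12 higher. In early tumors alone it was -0.91 and in late tumors alone 0.04 with 7 of 12 higher, so its direction was not kept. Leaving out replicate 6 of the HFD-LFD tumors alone gave -0.26. The part of adjacent fat pad in these values was not tested.

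**Figure D3:**
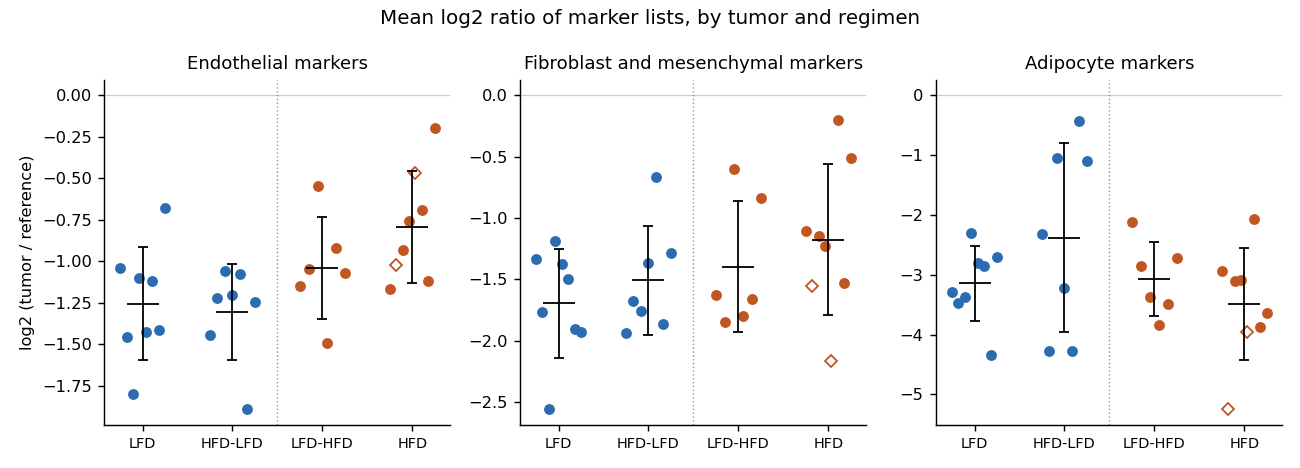
Mean log2 ratio over the members of 3 marker lists (y axis) in each tumor, by regimen (x axis); blue is adult LFD, orange adult HFD, bars are the mean and SD and open diamonds mark 42L4B and 60L. The endothelial averages have a median of -0.98 on adult HFD and -1.22 on adult LFD, the fibroblast and mesenchymal averages -1.38 and -1.68, and the adipocyte averages of the HFD-LFD tumors spread from -4.28 to -0.42.

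Skeletal muscle genes, which would be read from body wall carried along with a tumor, had higher ratios in 14 of 15 members with a median of 0.22. Acta1, the skeletal actin, differed by 0.50 (SE 0.19), Tnnt3 by 0.32 (SE 0.15) and Myh4 by 0.22 (SE 0.91), or 0.79 without 42L4B and 60L. The average over the list ranged from -5.66 to -3.15 on adult HFD and from -5.40 to -2.97 on adult LFD, so both groups were far below the reference. The part of muscle RNA in the other lists was not tested.

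With both pubertal diets pooled, genes of lipid metabolism showed little shift with the fat content of the adult diet. Of 16 genes of fatty acid uptake and storage 8 had higher ratios (median -0.01), of 24 genes of fatty acid oxidation and ketogenesis 15 (median 0.07), of 18 genes of fatty acid synthesis 8 (median -0.05) and of 21 genes of cholesterol synthesis and uptake 15 (median 0.10). The member of smallest p was Fasn, the fatty acid synthase that makes palmitate from carbohydrate. Its ratio had a median of 0.00 on adult HFD (range -0.92 to 1.46) and of 0.43 on adult LFD (range -0.13 to 0.92), and the difference was -0.46 (SE 0.17, unadjusted p = 0.0132, adjusted p = 0.954). It was -0.48 within pubertal LFD and -0.47 within pubertal HFD. The cholesterol median joined -0.11 after pubertal LFD (9 of 21 higher) and 0.32 after pubertal HFD (16 of 21). It was -0.13 in early and 0.21 in late tumors. The uptake and storage median was 0.05 after pubertal LFD (9 of 16 higher) and -0.19 after pubertal HFD (5 of 16). Medians for oxidation and for synthesis lay near zero after both pubertal diets.

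In the insulin and IGF list 13 of 23 members had higher ratios, with a median of 0.13, and the 3 members with an unadjusted p under 0.05 were all genes of IGF-binding proteins. The list median was -0.04 in early tumors (11 of 23 higher) and 0.30 in late ones (18 of 23). After pubertal LFD it was 0.10 (13 of 23) and after pubertal HFD -0.04 (11 of 23). Igfbp3, which carries IGF in the circulation and tissue, had a median of -0.25 on adult HFD (range -0.76 to 1.72, n = 13) and of -0.87 on adult LFD (range -2.34 to 0.36, n = 15). Its difference was 0.82 (SE 0.28), that of Igfbp4 0.70 (SE 0.26) and that of Igfbp7 0.66 (SE 0.27), or 0.30 with normexp and loess. The receptor genes Insr and Igf1r differed by -0.11 (SE 0.37) and 0.31 (SE 0.28), and the ligand gene Igf1 by -0.49 (SE 0.41). Without 42L4B and 60L the values were -0.35 for Insr and -0.28 for Igf1, and with probes averaged Insr gave 0.11.

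Immune lists were mixed. Neutrophil and acute phase genes had higher ratios in 12 of 15 members with a median of 0.35. In early tumors alone 4 of 15 were higher (median -0.08) and in late tumors alone 14 of 15 (median 0.81). S100a8 and S100a9, the calprotectin subunits of neutrophils, differed by 1.37 (SE 0.73) and 1.45 (SE 0.72), and by 0.69 and 0.94 in the matrix of the authors. Ptgs2, the inducible cyclooxygenase, had a median of 2.53 on adult HFD (range -0.38 to 5.20) and of 0.70 on adult LFD (range -3.03 to 3.99), a difference of 1.40 (SE 0.62), or 0.88 with normexp and loess. It was the 1 member of the macrophage polarization list at an unadjusted p under 0.05. In that list 7 of 15 members had higher ratios (median -0.06), 4 after pubertal LFD (median -0.28) and 8 after pubertal HFD (median 0.11). For its member Clec10a 14 of 15 adult LFD tumors exceeded the adult HFD median. For Retnla 3 of 13 adult HFD tumors exceeded the adult LFD median. Interferon-induced genes had lower ratios in 21 of 30 members with a median of -0.12 and 0 members at an unadjusted p under 0.05 in either direction. After pubertal LFD 3 of 30 were higher (median -0.32) and after pubertal HFD 16 of 30 (median 0.01). The pooled median of 0.00 for T and cytotoxic lymphocyte genes (8 of 17 higher) joined opposite directions, with 1 of 17 higher after pubertal LFD (median -0.31) and 16 of 17 after pubertal HFD (median 0.31). The highest averages over this list belonged to the HFD tumors 57R and 40R4A, both on slide 8, at 2.60 and 2.40. The median of the averages was 0.36 in HFD and 0.46 in HFD-LFD tumors, so the direction after pubertal HFD was not seen in a typical tumor. Macrophage genes (8 of 14 higher, median 0.04) and genes of MHC class II (5 of 9, median 0.01) were near the median of all genes.

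Among lists of the mammary epithelium, milk protein genes had higher ratios in 10 of 10 members with a median of 0.23, though 0 reached an unadjusted p of 0.05, and luminal genes in 13 of 17 with a median of 0.11. The milk protein median was 0.09 after pubertal LFD (5 of 10 higher) and 0.86 after pubertal HFD (8 of 10), 0.68 in early tumors (9 of 10) and 0.03 in late ones (5 of 10). Luminal genes were higher in 15 of 17 members in early tumors (median 0.52) and in 7 of 17 in late ones (median -0.08). Basal and myoepithelial genes, 7 of 16 higher in all tumors, ran the other way, with 1 of 16 higher in early tumors (median -0.43) and 14 of 16 in late ones (median 0.70). Areg, an EGF receptor ligand induced by estrogen, had a median of 2.59 on adult HFD (range 1.63 to 4.56) and of 1.43 on adult LFD (range -2.83 to 4.75), a difference of 1.45 (SE 0.57). The adult HFD tumors lay within the range of the adult LFD tumors, which spread much farther. Areg belongs to the list of hormone receptors and targets, with 8 of 11 members higher and a median of 0.27. That median was -0.17 in early tumors (5 of 11 higher) and 0.58 in late ones (10 of 11). Lists of cell proliferation (9 of 23 higher, median -0.04), apoptosis regulators (12 of 25, median 0.00), p53 targets (9 of 17, median 0.07), glycolysis and hypoxia (10 of 21, median -0.01), the mitochondrial respiratory chain (8 of 24, median -0.04), the circadian clock (8 of 17, median 0.00) and stress responses (7 of 18, median -0.01) had pooled medians near zero.

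Of the markers that the study stained, 7 were measured. Besides Pecam1, the proliferation gene Pcna differed by 0.15 (SE 0.14), the macrophage gene Adgre1 by -0.07 (SE 0.22), the arginase gene Arg1 by 0.64 (SE 0.49), the estrogen receptor gene Esr1 by 0.50 (SE 0.60), Krt5 by -0.10 (SE 0.56) and Krt18 by 0.35 (SE 0.29). Their adjusted p ran from 0.954 to 0.990. Without 42L4B and 60L the Esr1 difference was 0.26, and with normexp and loess -0.01. For Esr1 the tumors of each diet spanned nearly the whole scale, from -2.60 to 4.90 on adult HFD and from -3.12 to 5.09 on adult LFD.

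The pooled comparison averages over the diet eaten in puberty, so adult diet was also compared after each pubertal diet, LFD-HFD against LFD and HFD against HFD-LFD, which share no tumors. After pubertal LFD 0 genes were called in either direction, with 1391 at an unadjusted p under 0.05 (6.51%). After pubertal HFD 3 genes were called higher and 3 lower, 0.0281% of the genes tested, with 2841 at an unadjusted p under 0.05 (13.3%). Of the called genes with a symbol, Btg1c was higher by 2.25 (SE 0.44, adjusted p = 0.0824), and Rmrp, the RNA of the RNase MRP complex, and Pkhd1, the fibrocystin gene, were lower by values of -0.99 (SE 0.20, adjusted p = 0.0909) and -0.91 (SE 0.17, adjusted p = 0.0797). Krt34 was the third gene called lower, and the other 2 called higher were transcripts named only by probe or contig; these 3 were outside the rule for named genes and are mentioned after their values were seen. None of these calls was kept with slide as a random block.

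Both differences often ran against each other. Over all genes 39.9% had the same sign after both pubertal diets, and the correlation across genes, which are not independent replicates, was -0.244. The 24 genes of smallest p had the same sign after both, which their choice by the pooled p favors. The difference between the differences, the interaction of adult with pubertal diet, was called for 281 genes, 146 higher and 135 lower (0.683% and 0.631% of those tested, 1.31% in all). Written out, this contrast sets the mice that kept 1 diet for life (LFD and HFD) against those that switched (LFD-HFD and HFD-LFD), and 280 of the 281 genes had opposite signs after the pubertal diets, which their choice by the difference between the strata favors.

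**Figure D4:**
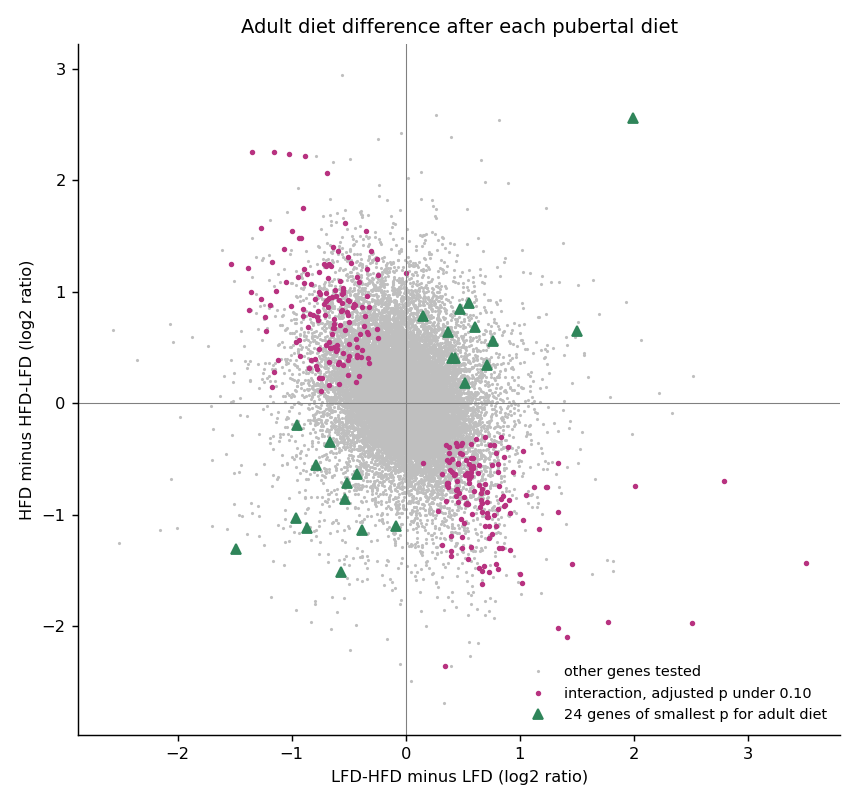
Adult diet difference in log2 ratio after pubertal LFD (LFD-HFD minus LFD, x axis) and after pubertal HFD (HFD minus HFD-LFD, y axis), 1 point a gene; magenta points are the 281 genes called for the interaction and green triangles the 24 named genes of smallest p in the pooled comparison. The magenta points fall in the 2 quadrants of opposite sign with 1 exception, and the triangles in the quadrants of equal sign.

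Among interaction genes, Rmrp was the clearest. It ran from 0.53 through a median of 0.92 to 1.34 in LFD tumors and from 0.22 through 1.06 to 1.44 in HFD tumors, against 1.53 through 1.78 to 2.45 in LFD-HFD and 1.30 through 1.74 to 2.55 in HFD-LFD tumors. The LFD and LFD-HFD tumors did not overlap. The interaction was -1.90 (SE 0.28, adjusted p = 0.0032), and -1.92 when slide was a random block (adjusted p = 0.0296). Tat, the liver enzyme tyrosine aminotransferase, gave -1.69 (SE 0.27) and Pkhd1 -1.43 (SE 0.24), with adjusted p of 0.0502 and 0.0673 under the slide block. Tat was far below the reference throughout, at means of -4.54 in LFD, -3.68 in LFD-HFD, -3.60 in HFD-LFD and -4.43 in HFD tumors. Mgat5b, Celf6, Cyp4a31, Map7d3 and Mzt1 gave interactions of -2.29, -1.99, -1.73, -1.53 and -1.26. With normexp and loess the Pkhd1 interaction was -0.22 (adjusted p = 0.779), that of Celf6 -0.64, of Map7d3 -0.45, of Cyp4a31 -1.13 and of Mgat5b -1.43, and Celf6, Map7d3 and Cyp4a31 were no longer called. Rmrp and Tat stayed called, at -1.78 (adjusted p = 0.0013) and -1.28 (adjusted p = 0.0766).

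In the other direction Btg1c gave 3.41 (SE 0.64, adjusted p = 0.0215). Its ratio had medians of 0.47 in LFD and 1.31 in HFD tumors and of -0.94 in LFD-HFD and -1.04 in HFD-LFD tumors. Lair1, an inhibitory receptor of leukocytes, gave 2.35 (SE 0.45), with means of 3.80 in LFD, 2.44 in LFD-HFD, 3.11 in HFD-LFD and 4.10 in HFD tumors. Irak4, a kinase of interleukin-1 and Toll-like receptor signaling, gave 1.88 (SE 0.38), Zc3h12d 2.78 (SE 0.54), Dhx37 2.08 (SE 0.43), Gsk3a 0.94 (SE 0.18), Prss48 1.87 (SE 0.34) and Olfr1500 1.5 (SE 0.31). With normexp and loess Btg1c gave 1.92, Irak4 1.09, Zc3h12d 1.27 and Olfr1500 0.38, and Zc3h12d and Olfr1500 were no longer called (adjusted p of 0.137 and 0.435). In Prss48, Btg1c, Lair1 and Olfr1500 the interaction was larger in the reference signal than in the tumor signal, with reference values of -3.25, -2.17, -1.54 and -1.67. The tumor values were -1.37, 1.23, 0.81 and -0.17, so in Prss48 and Olfr1500 the tumor signal ran against the ratio. The reference signal differed more than the tumor signal in 88 of the 281 genes (31.3%) and in 43.6% of all genes tested.

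**Figure D5:**
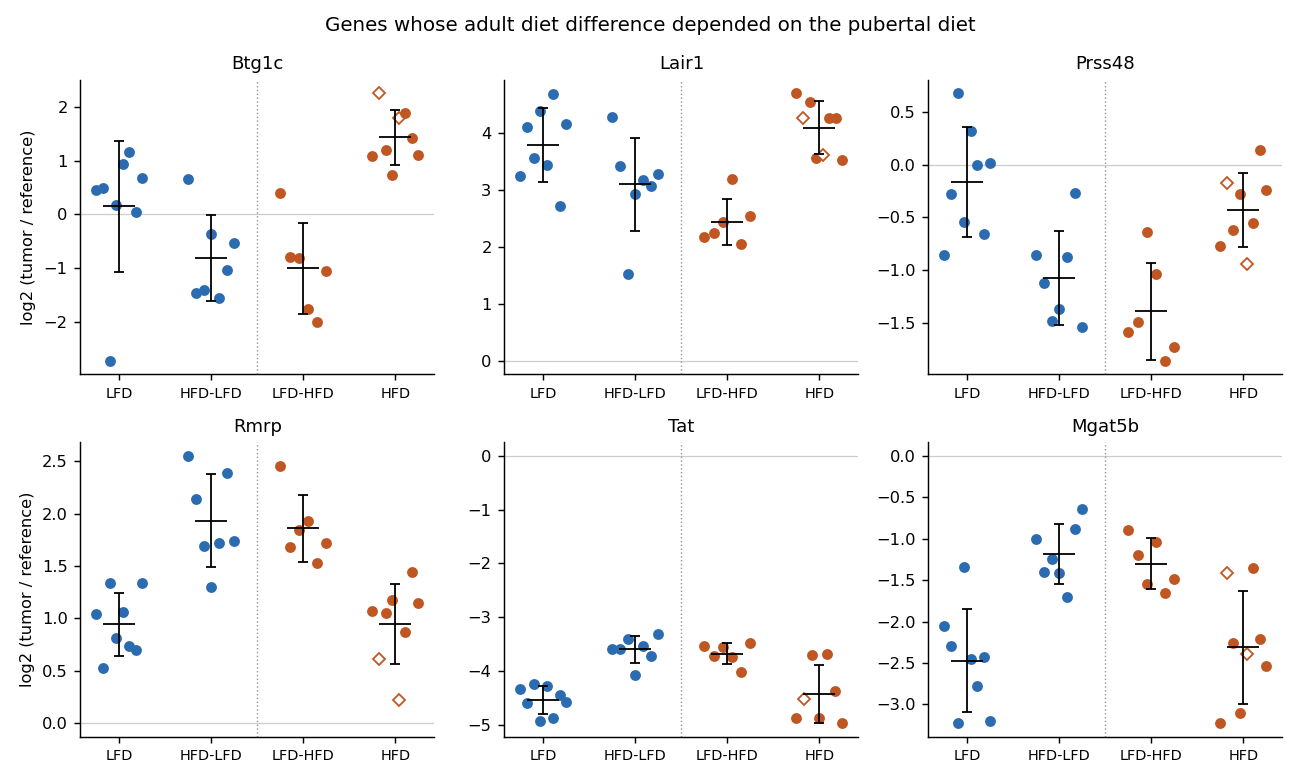
Log2 ratio of tumor to reference (y axis) of 6 genes called for the interaction in each tumor, by regimen (x axis), adult LFD in blue and adult HFD in orange; bars are the mean and SD and open diamonds mark 42L4B and 60L. Btg1c, Lair1 and Prss48 have higher means in LFD and HFD than in the switched regimens, and Rmrp, Tat and Mgat5b lower means.

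The interaction count rested on a few slides. It was 2 higher and 3 lower with slide as a random block, 0 and 0 without slide 2 (4 LFD-HFD tumors), 0 and 2 without slide 6 (4 early LFD tumors) and 3 and 20 without slide 4 (4 late HFD-LFD tumors), and the share of slide in these counts cannot be told apart from that of regimen. Of the gene lists, only cholesterol synthesis and uptake and the mitochondrial respiratory chain held a called interaction gene, 1 each.

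The adult diet difference was also taken apart by when a tumor occurred. In early tumors 0 genes were called in either direction (1180 at an unadjusted p under 0.05, or 5.52% of those tested), in late tumors 0 (1070, or 5.01%), and 0 for the interaction of adult diet with onset (1306, or 6.11%). With normexp and loess 2 genes were called higher for that interaction (lowest adjusted p = 0.0587). Among the genes of smallest pooled p, Ccbe1 differed by 2.25 in early and 2.16 in late tumors. Fgf9 differed by -1.41 and -1.29, and Fbln2 by 0.81 and 1.28. Others were less alike, such as Cnn2 at 0.38 and 0.89 and Fry at -0.32 and -1.03. The choice of these genes by the pooled p favors the same sign in early and late tumors, so their likeness cannot be set against that of the lists. Several list medians differed in sign between early and late tumors. Besides the basal, luminal, hormone receptor, neutrophil and adipocyte lists, p53 targets were higher in 3 of 17 members in early tumors (median -0.23) and 13 of 17 in late ones (median 0.17), and glycolysis and hypoxia genes in 3 of 21 (median -0.25) and 15 of 21 (median 0.23). Genes of macrophage polarization were higher in 4 of 15 (median -0.28) and 10 of 15 (median 0.34). B and plasma cell genes were higher in 3 of 8 (median -0.39) and 6 of 8 (median 0.72). The difference between early and late tumors was not tested for a list, and early and late adult LFD tumors were on different slides. In the deposited matrix 3 lifelong HFD columns held the values of one another's scanner files, which sets an early array under a late label and a late array under an early one, and which assignment is right is not given in the sources used here. In that matrix the basal list was at -0.17 in early and 0.53 in late tumors, the neutrophil list at -0.47 and 0.86, and the T and cytotoxic lymphocyte list at 0.17 and -0.20, against -0.13 and 0.32 from the scanner files. There the hormone receptor list was at 0.11 and 0.34, and the B and plasma cell list at 0.70 and 0.03. For comparison, pubertal HFD against pubertal LFD in the same 29 tumors called 0 genes too, with 2104 at an unadjusted p under 0.05 (9.84%).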

How the data were processed

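RNA of 29 tumors was read on 2-color Agilent arrays. The authors deposited the scanner output, with the background-corrected and dye-normalized intensity of each spot in both channels (Agilent Feature Extraction 8.5.1.1 in the submitters' notes), and a normalized matrix of log2 ratios; 3 of its 29 columns matched the scanner file of another lifelong HFD tumor, which leaves the adult groups as they are but exchanges the onset labels of 2. Control spots were left out and outlier spots, 1.63% of gene values, were missing. Probes with an intensity over 10 in both channels on 80% of arrays were kept (27929), and a gene was its brightest probe: 21378 genes, of which 17231 had a symbol in the GRCm38.p6 gene table, used for names only. limma 3.58.1 in R 4.3.3 fitted adult diet without covariates, then the 4 regimens and diet by onset, with Benjamini-Hochberg adjustment at 0.10. SAM, which the study used, was not run. The fits were also run on simulated tumors with independent noise and no slide effect. That noise had each gene's spread within regimens, and no pubertal diet difference was added. Recovery there may therefore exceed that in the real tumors. For genes changed by a log2 difference of 1, the adult diet fit recovered 68.5%, and 11.8% of its calls were false. The interaction fit recovered 12.7%, and 8.93% of its calls were false. Array quality was compared by 100000 permutations (SciPy 1.17.1). Replicate numbers follow the order of the samples and pair none. Nothing in the labels says whether 2 tumors of 1 number share a mouse, and precision is limited by how many arrays there are. Named genes were the 12 of smallest p in each direction that had a symbol and whose probe exceeded the scanner's background limit on at least 50% of the arrays of each diet, Trp53, the stained markers and up to 3 members of smallest p in each list; other list members were chosen for their role. For the interaction, 8 in each direction were named by the same rule, an extension chosen after its count was seen. The members and lists were chosen with earlier results of these data known. Alternatives changed the correction, centring, filter, probes, covariates, slide, session and tumors.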

Additional observations from a re-analysis of the deposited data

Results flagged for a closer look

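Within each regimen, single tumors that stood apart were looked for in the 24 genes of smallest p, Trp53, 3 list averages and 3 measures of array quality, 124 groups in all, of which chance would mark about 1 in 20. In 10 cases the gap of 1 tumor to its neighbour exceeded Dixon's 95% limit. Ccbe1 was -4.87 in HFD-LFD replicate 6, whose nearest neighbour was -0.94. Exoc3l was 1.05 in 80L (LFD-HFD, next 0.24), Slc6a9 -0.39 in 40R4A (HFD, next 0.31) and Gm8909 -2.60 in HFD-LFD replicate 5 (next -1.27). Ppp5c was -0.15 in HFD-LFD replicate 7 (next 0.45), an array on which 8.04% of spots were marked as outliers (next 1.0%). Adora1 was 0.67 in 13L (LFD, next -1.56), and the same tumor had the lowest Trp53 ratio, -2.25 (next 0.41). The array of 60L stood apart by its outlier spots, 22.02% (HFD, next 3.50%), and that of 71L by its reference channel, with 90.38% of spots well above background (LFD-HFD, next 81.61%).

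For 16 named genes the adult diet difference after pubertal HFD differed from that after pubertal LFD by a tested interaction. The values were 1.87 for Prss48, 3.41 for Btg1c, 2.35 for Lair1, 0.94 for Gsk3a, 2.78 for Zc3h12d, 1.88 for Irak4, 2.08 for Dhx37 and 1.5 for Olfr1500, and -1.90 for Rmrp, -1.69 for Tat, -1.43 for Pkhd1, -2.29 for Mgat5b, -1.99 for Celf6, -1.73 for Cyp4a31, -1.53 for Map7d3 and -1.26 for Mzt1. The part of slide in them was not tested gene by gene beyond the random block, under which Rmrp, Tat and Pkhd1 kept an adjusted p under 0.10. With normexp and loess 9 of the 16 values moved toward zero by more than 1.5 times, and Pkhd1, at -0.22, was not called. For Prss48 and Olfr1500 the interaction in the tumor signal alone was -1.37 and -0.17, against the direction of the ratio.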

How the results depend on the processing

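No gene was called between adult HFD and adult LFD tumors under any alternative run, with 356 to 1484 genes at an unadjusted p under 0.05, and 0 to 0 in each direction with 1 tumor left out. List medians moved by less than 1 SD of the list averages between tumors (pooled over both diets), except in early tumors of the authors' matrix for angiogenic factors (-0.18) and neutrophil genes (-0.47). That limit was wide and allowed changes of sign. For the adipocyte list, with a median of -0.46, the SD was 0.82 on adult HFD and 1.19 on adult LFD. Of 28 list medians 23 changed sign under at least 1 alternative: 22 in early or late tumors alone, 14 with 1 tumor or slide left out and 9 under another. Of the 24 genes of smallest p 13 moved by more than 1.5 times under at least 1 alternative, 10 of them with normexp and loess, as did 9 of the 16 interaction genes, all 9 with normexp and loess, under which 6 lost their call. With slide as a random block 13 of the 16 lost it. The calls after pubertal HFD (3 higher, 3 lower) became 0 and 0 with normexp and loess (also with a slide block), under the slide block alone, without 42L4B and 60L, with 1 tumor per shared number, at an adjusted p under 0.05, and without slide 2, 4, 5 or 6. They were 80 and 133 without slide 1, 64 and 73 without slide 3, 130 and 36 without slide 8, 1 lower without slide 7, and 34 and 123 in the authors' matrix. With 1 tumor left out they ran from 0 to 32 higher and from 0 to 62 lower. The interaction calls (146 higher, 135 lower) were 2 and 3 under the slide block, 3 and 1 under that block after normexp and loess, and 80 and 51 after normexp and loess alone. They were 85 and 60 with 1 tumor per shared number, 40 and 41 at an adjusted p under 0.05, 76 higher with no filter and 393 lower in the authors' matrix. Without slide 2 they were 0 and 0, without slide 4 3 and 20, without slide 6 0 and 2, without slide 7 265 and 224, 263 higher without slide 3, and 50 lower without slide 8. With 1 tumor left out they ran from 49 to 286 higher and from 50 to 256 lower: 71L and 92R, both LFD-HFD, gave the lowest counts and 13L, an LFD tumor, the highest. Normexp and loess gave 2 genes lower after pubertal LFD and 2 higher for the interaction with onset. Of uncalled genes, Kdr ran from -0.07 to 0.07 (-0.04 with outlier spots kept, -0.01 with covariates, 0.00 when centred), Vwf was 0.31 and Insr 0.11 with probes averaged, Esr1 was -0.01 after normexp and loess, Adgre1 0.01 and Krt5 0.00 with 1 tumor per shared number, and Krt5 0.01 and Trp53 -0.07 without 42L4B and 60L or with scan session as a block. The causes were not tested. Alternatives with each slide or tumor left out were added for the regimens and lists after the data were seen, as were the normexp fit with a slide block and the lists in early and late tumors alone, in the matrix too. No paired analysis was possible because the labels give no replicate numbers, and those used here only name tumors in the order of the samples.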
